A study of Mus musculus with 2 samples.

Results

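The genes described here are 10 members of the interleukin-6 (IL-6) signalling family in neonatal skin wounds, chosen by gene symbol and role from the 24346 genes measured. They are the ligands Il6, Il11, Lif and Osm, the receptor chains Il6ra, Osmr, Lifr and Il6st, the transcription factor Stat3 and the feedback inhibitor Socs3, and all 10 are listed for both libraries. Bulk mRNA was sequenced from dorsal skin wounds of 1-day-old C57BL/6J littermates, harvested 24 h after a full-thickness incision (the design text accompanying the data calls the wounds excisional). The WT library came from wild-type pups and the PU.1-/- library, labelled PU.1_KO, from pups homozygous for a knockout of PU.1, a transcription factor that macrophages, neutrophils and other blood lineages need to form. There was 1 library per genotype. The number of pups behind each library is not given in the sources used here. Values are FPKM, which divide the fragments of a gene by its exon length and by the mapped depth of the library and so allow levels to be compared between genes of different length.

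IL-6 family cytokines share a signalling chain, gp130, encoded by Il6st. A ligand first meets its own receptor (the IL-6 receptor for IL-6, the IL-11 receptor for IL-11, the LIF receptor for LIF, and the oncostatin M receptor or the LIF receptor for oncostatin M), and the complex with gp130 activates JAK kinases, which phosphorylate STAT3. STAT3 then switches on target genes, among them Socs3, whose protein binds gp130 and the JAK kinases and limits the signal. In skin wounds the family is known for driving acute-phase genes and keratinocyte migration, and oncostatin M is known as a product of activated neutrophils, macrophages and T cells.

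Spi1, the gene that encodes PU.1, had 35.4 FPKM (WT) against 1.45 FPKM (PU.1-/-), in the direction of the labels. The libraries also differed in sex-linked genes. Xist was listed at 0 in WT and at 9.48 FPKM in PU.1-/-, and the Y-linked Ddx3y at 20.97 FPKM and 0, so that genotype and sex cannot be told apart in any value given here. The depth, estimated from the size of 1-read steps in low genes, was 1.37e+07 fragments in WT and 1.58e+07 in PU.1-/-. No spread between animals can be given, and the 95% intervals below are exact binomial (Clopper-Pearson) intervals on estimated reads that cover counting error only. Values below 0.1 FPKM were raised to 0.1, and a gene was then called where the libraries differed by 2-fold or more. Where a pair of values is given, WT comes first.

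By that rule 1 of the 10 genes, Osm, was lower in the PU.1-/- wound and 1, Lif, was higher. Over all 24346 genes, 4.34% were lower and 2.32% were higher, and over the 13237 genes of at least 1 FPKM in 1 or both libraries the shares were 4.45% and 1.71%. At 1.5-fold the same 2 members were called, beside 7.67% and 5.79% of all genes, and at 3-fold Osm alone, beside 2.8% and 0.616%. Among 10 genes a single call is already a larger share than any of these, so the counts themselves say little about the family, and the description below rests on the values of each gene. The median log2 ratio of the 10 genes, PU.1-/- over WT, was 0.05, beside 0.00 over all genes and -0.01 over the 6538 genes of at least 10 FPKM in both libraries.

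Promoter sequence was read for the members to set the measured levels beside known regulatory motifs. RefSeq promoters on GRCm38.p6, the assembly of mm10, were at hand for 9 of the 10 genes and not for Osm. The 250 bases before each start site were searched on both strands for a STAT motif (TTCNNNGAA), an AP-1 motif (TGANTCA) and the core of the PU.1 motif (GAGGAA). No match overlapped another. Of all 32851 promoters of the same length, 7.02% held the STAT motif, 6.75% the AP-1 motif and 23.3% the PU.1 core. Shown here are Lif, the gene that was higher, Socs3, the STAT3 target whose ratio was nearest to 1, and Il6, the most abundant ligand, each 5′ to 3′ in lower case with motif matches in capitals.
Lif, chr11:4257318-4257567, plus strand: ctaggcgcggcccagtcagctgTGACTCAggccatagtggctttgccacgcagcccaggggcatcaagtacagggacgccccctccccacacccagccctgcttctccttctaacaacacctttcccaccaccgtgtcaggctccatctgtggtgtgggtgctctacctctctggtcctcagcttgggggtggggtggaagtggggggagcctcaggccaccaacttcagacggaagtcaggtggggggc
Socs3, chr11:117969367-117969616, minus strand: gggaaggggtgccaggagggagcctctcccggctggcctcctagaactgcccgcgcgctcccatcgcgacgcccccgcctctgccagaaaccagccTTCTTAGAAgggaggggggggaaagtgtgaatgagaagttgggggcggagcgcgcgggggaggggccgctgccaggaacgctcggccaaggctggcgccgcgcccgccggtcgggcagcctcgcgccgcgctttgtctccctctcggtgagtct
Il6, chr5:30012864-30013113, plus strand: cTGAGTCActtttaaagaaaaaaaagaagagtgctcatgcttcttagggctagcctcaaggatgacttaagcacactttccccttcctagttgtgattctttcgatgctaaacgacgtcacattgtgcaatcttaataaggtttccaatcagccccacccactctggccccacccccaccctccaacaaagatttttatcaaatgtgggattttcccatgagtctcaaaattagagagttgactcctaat
The capitals in Lif mark an AP-1 match from position -228 to -222, counted back from the start site. Those in Socs3 mark a STAT match from -154 to -146, the only STAT match among the 9 genes. Those in Il6 mark an AP-1 match from -249 to -243. The second listed start of Il11 also held an AP-1 match, and the promoters of Il6ra and Osmr held 1 PU.1 core each. The promoters of Lifr, Il6st and Stat3 held none of these letters. A match is a run of letters and not a measured binding site. The listed starts of Socs3, Osmr, Lifr, Il11 and Stat3 lie inside the RefSeq gene spans given below. Presence or absence of a match therefore holds for the listed starts only.

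The ligands differed from each other more than the other members did. Their summed level was 95.2 FPKM (WT) against 61.9 FPKM (PU.1-/-), and Il6 made up 73.8% and 81.4% of it. Osm encodes oncostatin M and lies at chr11:4236785-4241026. It had 15.1 FPKM in the WT library, worth about 428 reads, and was listed at 0 in the PU.1-/- library. A single read would have been 0.0305 FPKM there, and a count of 0 allows up to 3 reads, or 0.0916 FPKM. It is 1 of 46 genes with at least 10 FPKM in WT that were listed at 0 in PU.1-/-, while 3 genes stood the other way round. Of 80 ribosomal protein genes, which every cell uses, 1 was listed at 0 in each library. No ratio is given for Osm.

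Lif encodes leukemia inhibitory factor and lies at chr11:4257568-4272514, 16.5 kb from Osm with no RefSeq gene between them. It had the lowest WT level of the members, 1.68 FPKM, and 4.42 FPKM in the PU.1-/- library, from about 88 and 267 reads. The PU.1-/- level was 2.62 times the WT level (interval 2.05 to 3.37). Lif had the 69th highest ratio among the 13237 genes of at least 1 FPKM. The neighbouring ligand genes Osm and Lif were thus called in opposite directions.

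Il6, at chr5:30013114-30019975, had 70.3 FPKM (WT) against 50.4 FPKM (PU.1-/-), the highest ligand level in both libraries. Interleukin-6 is the founding cytokine of the family and an inducer of the acute-phase response. Its PU.1-/- level was 0.718 of the WT level (interval 0.673 to 0.766), short of 2-fold. The middle 90% of genes of at least 10 FPKM in both libraries had ratios between 0.737 and 1.35, so Il6 lay just below that range. For genes of at least 1 FPKM in 1 or both libraries the middle 90% spanned 0.539 to 1.53, which holds the Il6 ratio. Il11, at chr7:4772373-4782907, had 8.15 and 7.10 FPKM. Interleukin-11 acts on stromal cells and is known for roles in fibrosis. Its ratio of 0.871 had an interval that included 1 (0.709 to 1.06), so a difference was not detectable at this depth. Il6, Il11, Il6ra and Stat3 each overlap another RefSeq gene (A230098N10Rik, Tmem190, Gm46811 and Gm46295), and shared reads would make their values uncertain, since the use of strand in the counting is not given in the sources used here.

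**Figure D1:**
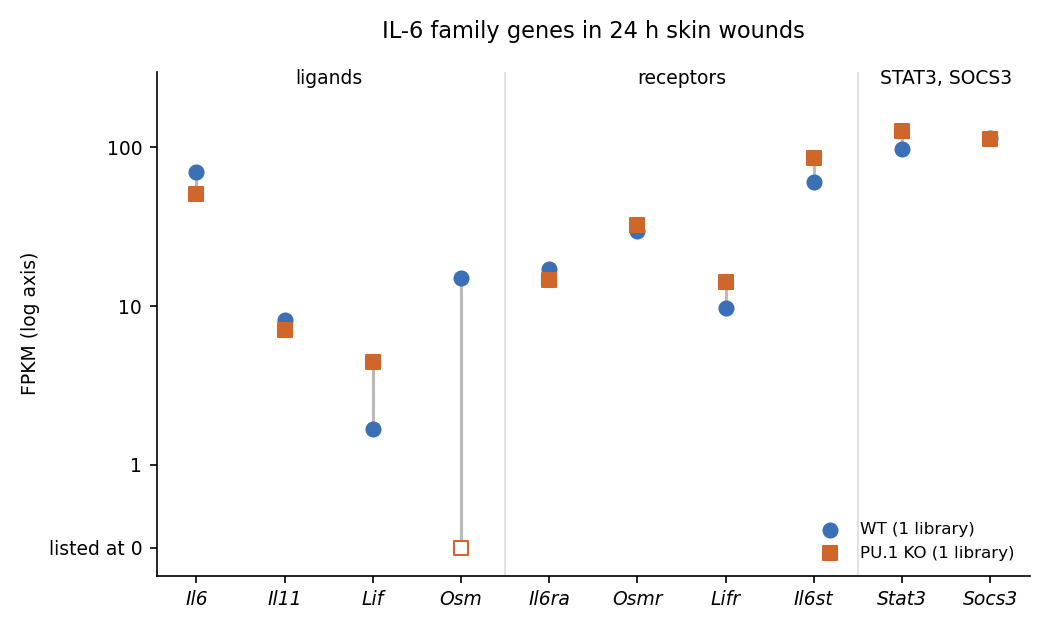
FPKM (log axis) of each gene in the WT library (blue circles) and the PU.1-/- library (orange squares), 1 library per genotype, with a line joining the pair and an open square for a value listed at 0. Osm drops from 15.1 FPKM to a listed 0 and Lif lies higher in PU.1-/-, while the other genes differ by less than 2-fold.

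The receptor chains were all detected in both wounds, and none passed 2-fold. Il6st, at chr13:112464070-112506860, encodes gp130 and was the most abundant receptor chain, with 60.1 FPKM (WT) against 85.1 FPKM (PU.1-/-). Its ratio was 1.42 (interval 1.37 to 1.46). Lifr, at chr15:7090610-7197489, encodes the LIF receptor, which pairs with gp130 for LIF and can also serve oncostatin M. It had 9.72 and 14.2 FPKM, a ratio of 1.46 (interval 1.36 to 1.56). Both ratios were positive on the log2 scale by about the same amount, 0.50 for Il6st and 0.54 for Lifr. Il6st had the 955th and Lifr the 824th highest ratio among the 13237 ranked genes.

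Osmr, at chr15:6813568-6874968, encodes the specific receptor of oncostatin M. It had 29.8 FPKM (WT) against 32.2 FPKM (PU.1-/-), a ratio of 1.08 (interval 1.02 to 1.14). The receptor of oncostatin M was thus measured at a similar level in both wounds, while the ligand was listed at 0 in one of them. Osmr and Lifr lie 216 kb apart on chromosome 15, with no coding RefSeq gene between them. Il6ra, at chr3:89869324-89913196, encodes the specific receptor of interleukin-6 and had 17.1 and 14.5 FPKM. Its ratio was 0.851 (interval 0.799 to 0.906), the only receptor chain that was lower in PU.1-/-. Gp130 made up 51.5% of the summed FPKM of the 4 receptor chains in WT and 58.3% in PU.1-/-.

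Stat3 and Socs3 were the most abundant of the 10 genes in both libraries. Stat3, at chr11:100886806-100939594, had 97.9 FPKM (WT) against 126 FPKM (PU.1-/-), a ratio of 1.29 (interval 1.25 to 1.32) that lay inside the range of 0.737 to 1.35 given above. Socs3, at chr11:117966079-117970336, had 114 FPKM (WT) against 113 FPKM (PU.1-/-). Its ratio was 0.996, and the interval of 0.953 to 1.04 included 1. The feedback gene of the pathway, whose promoter holds the STAT match shown above, was thus measured at nearly the same level in both wounds. By level it ranked 801st of all genes in WT and 752nd in PU.1-/-. These are mRNA levels, and the activity of STAT3 depends on phosphorylation, which was not measured.

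In WT the order of levels was Socs3, Stat3, Il6, Il6st, Osmr, Il6ra, Osm, Lifr, Il11 and Lif. In PU.1-/- it was Stat3, Socs3, Il6st, Il6, Osmr, Il6ra, Lifr, Il11, Lif and Osm. With 1 library each, no replicate spread is at hand to separate neighbours in either order, such as Il6ra and Lifr in PU.1-/- at 14.5 and 14.2 FPKM.

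**Figure D2:**
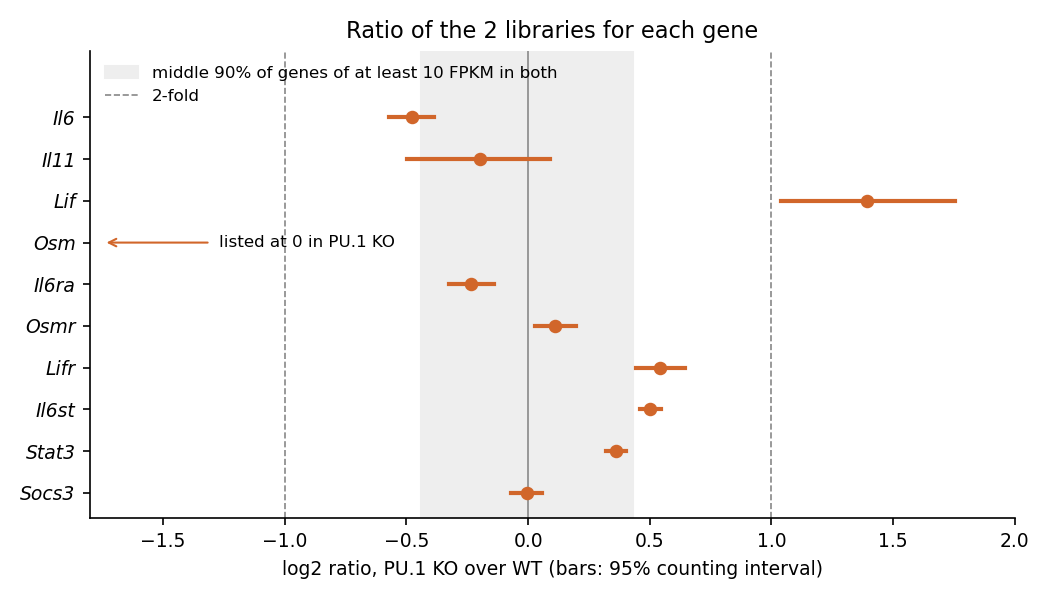
Log2 ratio of PU.1-/- over WT for each gene, with bars for the 95% counting interval, a grey band for the middle 90% of genes of at least 10 FPKM in both libraries and dashed lines at 2-fold. Lif lies beyond 2-fold with an interval from 2.05 to 3.37, and Osm has no ratio. Il6 (0.718), Lifr (1.46) and Il6st (1.42) lie at or beyond the edges of the band. Lifr, at 9.72 FPKM in WT, is not among the genes of the band. The middle 90% of genes of at least 1 FPKM in 1 or both libraries, 0.539 to 1.53, holds Il6, Lifr and Il6st.

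**Figure D3:**
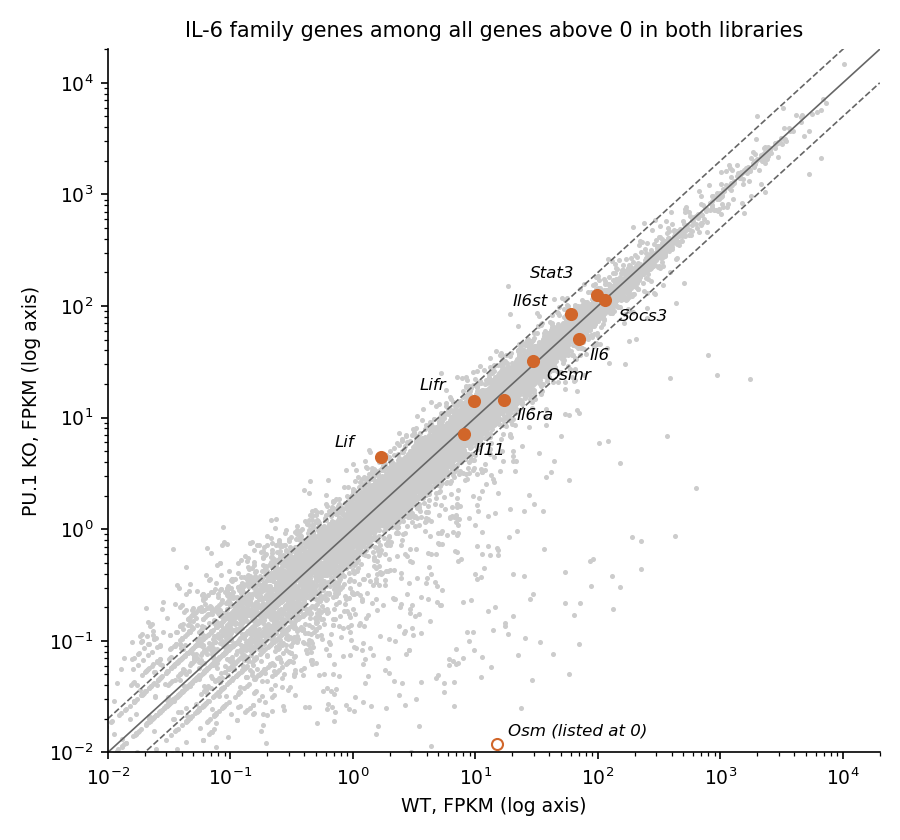
FPKM in PU.1-/- against WT on log axes, with every gene above 0 in both libraries in grey, the 10 genes in orange, equality as a solid line and 2-fold as dashed lines. Osm, an open circle at the lower edge, is listed at 0 in PU.1-/-, and 8 of the 10 genes lie between the dashed lines.

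The rest of the family was described with lists fixed by role. Counts of calls here and in the lists that follow stand beside 4.34% lower and 2.32% higher over all genes. In short lists a few calls say little about the list. Of 8 other ligand and partner genes, 2 were lower and none was higher, and 5 reached 1 FPKM. Ebi3, a subunit shared by interleukin-27 and interleukin-35, had 3.23 FPKM in WT and was listed at 0 in PU.1-/-. Its partner Il27 was the other lower gene, at 0.293 and 0.128 FPKM, from about 3 and 2 reads, too few to measure a ratio. It was named after its value was seen. Clcf1, a ligand of the ciliary neurotrophic factor receptor, had 5.06 and 5.66 FPKM. Ctf1, cardiotrophin-1, had 4.24 and 2.96 FPKM, a ratio of 0.698 (interval 0.477 to 1.01).

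None of the 5 other receptor genes was called, of which 3 reached 1 FPKM. Cntfr, the receptor of ciliary neurotrophic factor, had 63.2 and 64.0 FPKM. Il11ra1, the receptor of interleukin-11, had 39.7 FPKM (WT) against 51.5 FPKM (PU.1-/-), a ratio of 1.30 (interval 1.20 to 1.41). None of the 11 kinase, adaptor and STAT genes was called either, with log2 ratios from -0.40 to 0.24. Jak1, a kinase bound to gp130, had 52.1 and 55.2 FPKM, and Ptpn11, the phosphatase that links gp130 to the MAP kinase pathway, had 49.1 and 49.7 FPKM.

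Of 12 other inhibitor genes, 2 were lower and none was higher, beside 4.34% and 2.32% of all genes. Ptpn6, a phosphatase found mostly in blood cells, had 20.98 FPKM (WT) against 3.31 FPKM (PU.1-/-), 6.34 times as much in WT (interval 5.18 to 7.86). Socs1, a suppressor that acts mainly on interferon signalling, had 9.96 and 4.61 FPKM, 2.16 times as much in WT (interval 1.81 to 2.58). With a pseudocount of 1 FPKM its PU.1-/- level was 0.512 of the WT level and it was no longer called. The more widely expressed phosphatases Ptpn1 and Ptpn2 had 42.9 and 39.0 FPKM and 41.7 and 40.1 FPKM.

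Of 26 genes described as responsive to STAT3, 2 were lower, 1 was higher and 23 were not called. Over all genes 4.34% were lower and 2.32% were higher, so these few calls say little about the list. The median log2 ratio of the list was 0.10, and 16 of the 26 values were above 0 and 10 below. The summed level, which is weighted to the most abundant genes, was 7598 FPKM (WT) against 4991 FPKM (PU.1-/-), a ratio of 0.657. Saa3, an acute-phase protein, had 2318 FPKM (WT) against 1059 FPKM (PU.1-/-), 2.19 times as much in WT (interval 2.16 to 2.22). Il1rn, the interleukin-1 receptor antagonist, had 37.8 and 8.54 FPKM, 4.43 times as much in WT (interval 3.90 to 5.03). Reg3g, an antimicrobial lectin made by epithelial cells, had 14.6 and 39.3 FPKM, 2.68 times as much in PU.1-/- (interval 2.17 to 3.34). Hp, the hemoglobin-binding haptoglobin, had 2158 and 1250 FPKM and did not reach 2-fold. These genes also answer to other signals, and the list does not measure STAT3 activity.

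**Figure D4:**
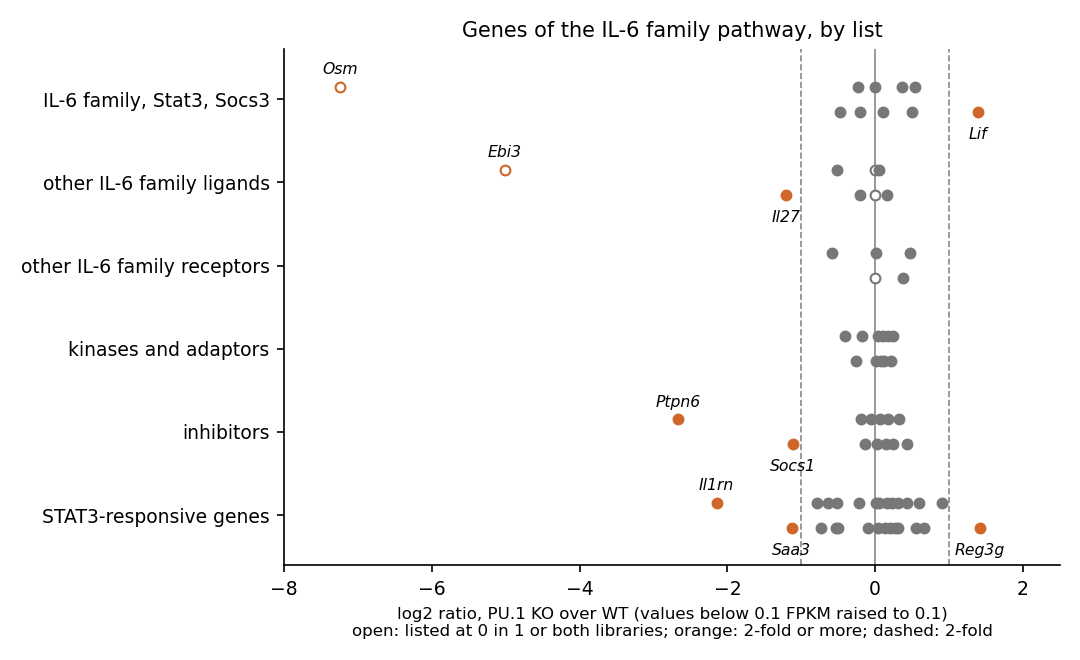
Log2 ratio of PU.1-/- over WT for each gene of the pathway lists, with values below 0.1 FPKM raised to 0.1, open points for genes listed at 0 in 1 or both libraries, orange points at 2-fold or more and dashed lines at 2-fold. The 5 lists of other genes hold 6 lower genes and 1 higher gene, and none of these is a receptor, kinase or adaptor. Over all genes 4.34% were lower and 2.32% were higher.

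Most markers of macrophages, mast cells and neutrophils were lower in the PU.1-/- wound. All 10 macrophage markers were lower, with a summed level of 821 FPKM (WT) against 11.7 FPKM (PU.1-/-), and 5 of them, among them Tyrobp and C1qb, were listed at 0 in PU.1-/-. All 8 mast cell markers were lower, at 739 and 9.78 FPKM in sum. Of 9 neutrophil markers 8 were lower, and their sum of 12588 and 3676 FPKM was mostly S100a8 and S100a9, which keratinocytes also make. Of 8 T cell markers 4 were lower, all 4 at 1.24 FPKM or less in WT and listed at 0 in PU.1-/-, while Thy1, which fibroblasts also express, had 114 and 166 FPKM. Osm, Ebi3, Ptpn6, Socs1, Saa3 and Il1rn were also lower, as were 3 of 8 adipocyte markers. With 1 library per genotype, all lower genes fall in the same library, which does not link any of them to a cell type. The paper names Saa3 among genes expressed by fibroblasts in wounds. In bulk tissue, fewer cells of a type and less RNA per cell cannot be told apart, and the part of each cell type in these genes was not tested.

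Of 10 skeletal muscle markers 3 were higher, or 1 with a pseudocount of 1 FPKM. The values of all 10 lay above WT, and their sum was 8856 FPKM (WT) against 15069 FPKM (PU.1-/-), a ratio of 1.70. Fibroblast, keratinocyte and endothelial markers had summed ratios of 1.15, 1.15 and 1.14, with 1 call among 30 genes, the endothelial gene Vwf. The 5 red blood cell markers found were all above their WT level, with 3 called, and 3 of 8 adipocyte markers were lower. Their part in the levels of the IL-6 family genes was not tested.

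**Figure D5:**
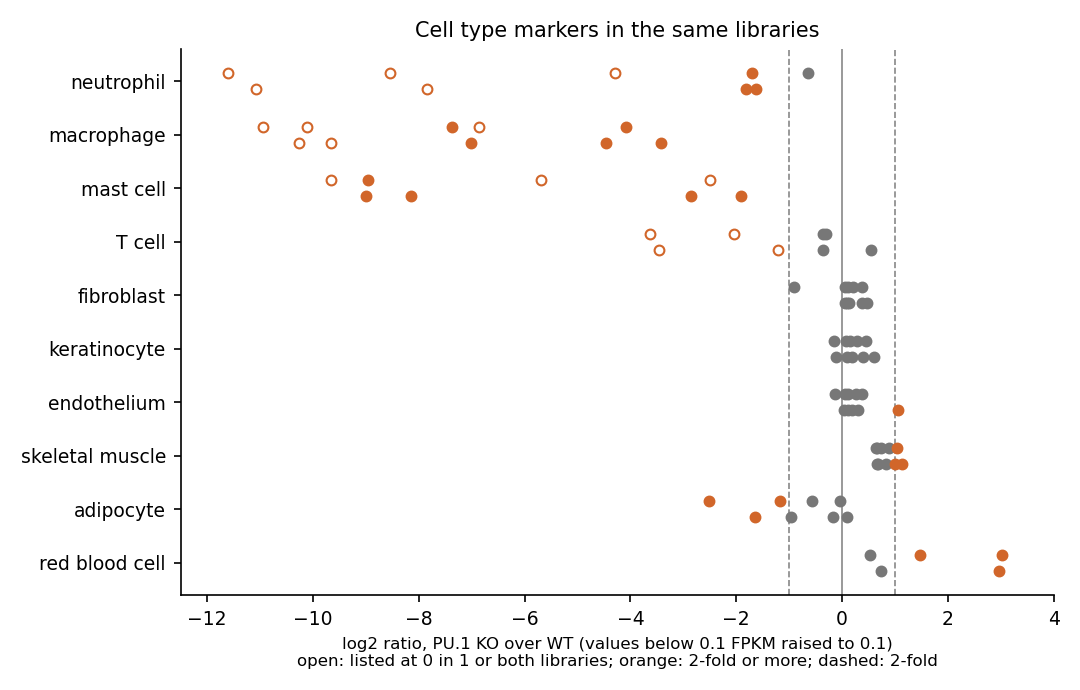
Log2 ratio of PU.1-/- over WT for each cell type marker, drawn as in the plot of the pathway lists. Macrophage and mast cell markers all lie below -1, fibroblast and keratinocyte markers all lie between the dashed lines, and all skeletal muscle markers lie above 0.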

How the data were processed

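Wound mRNA was measured in 1 WT and 1 PU.1-/- library. The authors prepared stranded mRNA libraries, sequenced single-end reads, mapped them to mouse mm10 and deposited FPKM values made with Cuffnorm 2.2.1. The submitters' processing notes name TopHat2 2.1.1, Bowtie2 2.2.8, SAMtools 0.1.18 and Cuffdiff 2.2.1. The annotation is not given in the sources used here.

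Each computed value derives from these FPKM. Values below 0.1 were raised to 0.1 for calls at 2-fold. Reads were estimated from FPKM, the longest coding GENCODE M21 transcript less 200 nt, and a depth at which low genes with 1 transcript come out as whole reads (80.4% of 734 WT values and 82.1% of 698 PU.1-/- values within 0.15 reads). Intervals are at 95%. With 1 library per genotype no test across animals was made. The code for calls and intervals was run on simulated libraries with counting error only, drawn with the same lengths and depths. Such libraries hold no spread between animals, so they cannot show how far calls between 2 single libraries would repeat. Gene positions and promoters are RefSeq GRCm38.p6.

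Named genes were all 10 members, Spi1, Xist, Ddx3y, in each pathway list the called genes of at least 1 FPKM and the 2 with the highest WT level, and the 2 most abundant markers of each cell type, not all of which are printed. Il27, Vwf and the genes overlapping members stand outside this rule and were named after their values or positions were seen. Members and lists were chosen with earlier results of these data known. Alternatives of floor, pseudocount, scaling, threshold, filter and transcript length were computed. The software was matplotlib 3.10.9 and scipy 1.17.1 under Python 3.11.15, with numpy 2.4.6 and pandas 2.3.3.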

Additional observations from a re-analysis of the deposited data

How the results depend on the processing

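The 9 members with a ratio kept their direction under 7 alternatives of floor, pseudocount and scaling, except Socs3, whose ratio of 0.996 lay between 0.996 and 1.03. Lif ranged from 2.02, with a pseudocount of 1 FPKM, to 2.71, and Il6 from 0.718 to 0.741. Osm was counted as lower under each of them, and has no ratio. At 3-fold, 0 members were higher. The shares of all genes lower and higher were 1.90% and 0.674% with a floor of 1 FPKM, 7.30% and 5.01% with a floor of 0.01 FPKM, 1.89% and 0.366% with a pseudocount of 1 FPKM, 7.67% and 5.79% at 1.5-fold, and 2.80% and 0.616% at 3-fold. The interval of Il6 widened to 0.621 to 0.826 with the shortest coding transcript of at least 300 nt, and that of Il6st to 1.23 to 1.63, since fewer reads were estimated. No paired analysis was possible because each genotype has 1 library, and none could be left out. With a pseudocount of 1 FPKM, Socs1, Il27, Lep, Vwf and Il22ra2 were no longer called, and 1 inhibitor was lower in place of 2. The genes responsive to STAT3 were 5 lower and 4 higher at 1.5-fold, and 1 and 0 at 3-fold. Depth limits the low genes, among them Il27, sex differs with genotype, and the spread between animals is unknown.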

Other observations

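Other cytokines that signal through STAT3 were read from a list written after the values of the IL-6 family were seen, so the counts are descriptions only. For the ligand and receptor counts below, the shares of all genes were 4.34% lower and 2.32% higher. Of 9 ligand genes 3 reached 1 FPKM. Csf3, granulocyte colony-stimulating factor, had 81.7 FPKM (WT) against 67.7 FPKM (PU.1-/-), a level above that of Il6 in both wounds. Il19, a member of the interleukin-10 family made by keratinocytes and myeloid cells, had 23.6 and 22.8 FPKM. Il24, a related cytokine, had 3.43 and 5.35 FPKM. The hormone gene Lep was the 1 lower ligand gene, at 0.945 and 0.165 FPKM. It is itself among the 3 lower genes of the 8 adipocyte markers, so that count is not independent of it.

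Of 11 receptor genes 3 were lower and 1 was higher, and each of the lower genes was listed at 0 in PU.1-/-. They were Il10ra, with 3.07 FPKM in WT, Csf3r, the receptor of Csf3, with 1.97 FPKM, and Il21r, with 0.210 FPKM. Csf3r is itself among the 8 lower genes of the 9 neutrophil markers, so that count is not independent of it. The higher gene was Il22ra2, a soluble receptor that binds interleukin-22, at 0.638 and 1.36 FPKM, a ratio of 2.13 (interval 1.24 to 3.76) that fell short of 2-fold with either pseudocount and with a floor of 1 FPKM. Lepr, the leptin receptor, had 10.4 and 17.5 FPKM, a ratio of 1.68 (interval 1.54 to 1.84).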
